A study of Mus musculus with 3 samples.

Results

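Genes of the MYC, MAX and MXD network were followed in RNA of mouse regulatory T cells, the CD4 T cells that depend on Foxp3 and restrain immune responses. The 10 members (Myc, Mycn, Max, Mxd1, Mxd3, Mxd4, Mxi1, Mnt, Mlx and Mga) were chosen by name as the MYC family with its MAX-network partners and antagonists, out of 50600 annotated genes, and each matched 1 gene of the deposited files. The cells were primary cells of strain C57BL/6NJ, and per the file headers they had been activated for 16 hours; the agent of activation is not given in the sources used here. Libraries numbered 2, 3 and 4 form 1 group, with no second condition, genotype or treatment. They share a single donor identifier, sex and age are not recorded, and the linked protocols refer by name to CD4 T cell differentiation and to polyadenylated RNA although the assay is labelled total RNA. The labels do not say how many animals gave each library, and every SD measures only the spread between these 3 libraries.

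The libraries held 41222058, 47665060 and 99097524 assigned fragments. All 5 regulatory T cell markers (56.1 to 658 TPM on average; TPM is a transcript level scaled for gene length and library total) and all 4 pan T cell markers were detected. Of 17 markers of CD8 T, B, myeloid, NK, erythroid and stromal or epithelial cells, 4 had no fragment and 2 reached 1 TPM in every library, Cd8b1 at 26.9 TPM and Epcam at 1.86 TPM; the 17 summed to 28.3 to 33.5 TPM per library. Libraries stood apart in sex-linked RNA: Xist was at 126, 0.331 and 36.1 TPM in replicates 2, 3 and 4, and Y-linked Ddx3y at 0.126, 39.3 and 28.4 TPM. Replicates 2 and 3 were opposite in these genes and so were not repeats of RNA from a single animal, while replicate 4 held both RNAs; the part of technical and animal differences in the SDs cannot be told apart.

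MYC proteins are transcription factors that promote growth, metabolism and cell cycle entry in T cells responding to antigen. They bind DNA only as dimers with MAX, at the E-box CACGTG and related sites, while the MXD proteins, MNT and MGA take up MAX in their place and repress many of the same sites, the MXD proteins and MNT through the SIN3 corepressor. MLX heads a parallel branch: it pairs with the glucose-responsive MONDO factors and with some MXD proteins and MNT.

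The promoters of 4 members hold the site that the network itself binds. RefSeq promoter windows on GRCm38.p6, running from 250 bases before to 50 bases after each annotated start, were listed for 9 members (11 windows); Myc had no entry. Letters CACGTG, which read the same on both strands, occurred in 4 of the 11 windows (36.4%), against 7.15% of all 32851 windows and 10.6% of the 10143 windows of protein-coding genes detected here. The related site CACGCG, searched on both strands and counted separately (matches of the 2 motifs may share bases), occurred only in the Mga window (9.09% of the 11, against 9.27% of all windows and 18.2% of those of detected genes). The 4 stretches with CACGTG are shown because they carry the dimers' own recognition letters, in capitals, each on the gene's strand and from 5′ to 3′.
Max: ccccggcgcggtgagcccggtCACGTG
Mlx: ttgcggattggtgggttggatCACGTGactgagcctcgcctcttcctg
Mnt: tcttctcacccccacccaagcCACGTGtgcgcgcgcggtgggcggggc
Mxd4: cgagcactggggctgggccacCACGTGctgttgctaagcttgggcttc
These lie at chr12:76962246-76962272 (minus strand), chr11:101087229-101087276 (plus), chr11:74830780-74830827 (plus) and chr5:34187903-34187950 (minus). The E-box began 3, 40, 123 and 219 bases before the RefSeq start of Max, Mlx, Mnt and Mxd4. Max, Mlx and Mnt were the members that followed Myc in level, while Mxd4 was among the scarce ones. A match of letters is a description and not evidence of binding in these cells.

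Levels across the network spanned from Myc, among the abundant messages of the cell, to Mycn, close to no fragments at all. Of the 10 members, 8 reached 1 TPM in every library, 5 reached 10 TPM and 3 reached 100 TPM; 45.6% of the 21764 protein-coding genes reached 1 TPM. The median member was at 22.0 TPM, beside 0.355 TPM over all protein-coding genes. In bulk RNA, fewer cells of a type and less RNA per cell cannot be told apart.

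**Figure D1:**
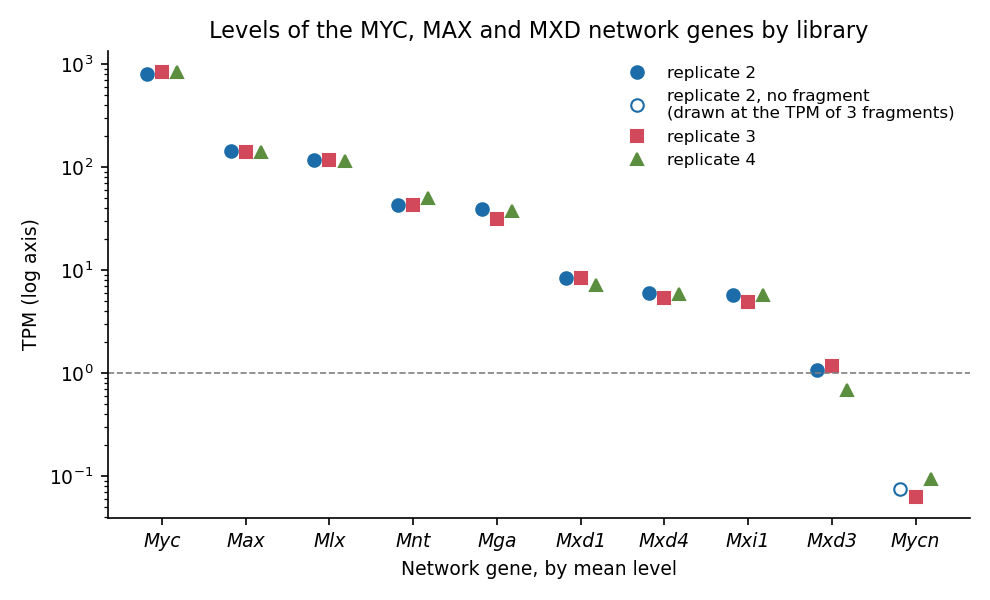
Level of each network gene in TPM (log axis) in the 3 libraries, ordered by mean level; the dashed line marks 1 TPM and the open circle is a library with no fragment, drawn at the TPM of 3 fragments. Myc sits at 806 to 835 TPM, well above Max and Mlx, and Mxd3 straddles the dashed line.

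Myc, the family member that T cells induce on activation (ENSMUSG00000022346.15, chromosome 15, 61985391 to 61990374, mm10), was counted with 26727, 32536 and 66179 fragments in replicates 2, 3 and 4. These made 806, 835 and 833 TPM. The 3 values lay close together at 825 ± 16.4 TPM (SD, n = 3), and Myc ranked 151st of 21764 protein-coding genes in each library. It made up 69.7 ± 0.686% of the summed TPM of the 10 members. Among the protein-coding genes nearest to Myc in level over the 3 libraries, by distance of log2(TPM + 1), was Lck, the kinase that starts T cell receptor signalling, at 830 ± 35.0 TPM.

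The other MYC genes were near the limit of detection. Mycn, the paralogue best known from the developing nervous system (chromosome 12, 12936096 to 12941914), had 0, 3 and 9 fragments, or 0, 0.0636 and 0.0935 TPM, where 3 fragments are worth 0.0747 TPM in replicate 2. Mycl, the third paralogue and not among the 10 members, had 1, 0 and 4 fragments. The X-linked Myc retrogene Mycs had no fragment in any library, and 3 fragments would be at most 0.104 TPM. Pvt1, the long noncoding RNA next to Myc on chromosome 15, was at 8.05, 5.95 and 6.54 TPM, so that Myc exceeded it 123 ± 20.5 fold; the lowest fold, 100.2, was in replicate 2.

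Max, the shared dimerisation partner (ENSMUSG00000059436.13, chromosome 12, 76937269 to 76962201), stood at 144, 141 and 140 TPM. Its mean of 142 ± 2.25 TPM was far below that of Myc in every library. Myc exceeded Max 5.58, 5.92 and 5.95 fold, and the log2 difference of Max from Myc was -2.53 ± 0.05 on the log2(TPM + 1) scale (lower in 3 of 3 libraries, exact two-sided sign-flip permutation p = 0.25, the smallest that 3 libraries allow). With the length of the longest coding transcript in place of the merged exon length, that difference was -1.86. On merged exon lengths Max amounted to 15.3 ± 0.515% of the summed TPM of its partners among the members (Myc, Mycn, the MXD genes, Mnt and Mga). With transcript lengths this share was larger, as Max was at 190 ± 3.27 TPM and Myc at 692 ± 12.6 TPM. These are levels of messages, not of proteins. Nearest to Max in level were Tagap (142 ± 2.86 TPM), a GTPase-activating protein of activated T cells, and Tecr (140.1 ± 1.48 TPM), an enzyme of long-chain fatty acid synthesis.

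Mlx, the hub of the parallel branch (ENSMUSG00000017801.15, chromosome 11, 101087277 to 101092207), came next to Max in level. It was at 116, 117 and 114 TPM, with a mean of 116 ± 1.56 TPM. The highest Mlx library stayed below the lowest Max library, so the 2 ranges did not overlap. Max exceeded Mlx 1.23 ± 0.0191 fold on merged exon lengths and 2.24 ± 0.0349 fold with transcript lengths. Of its MONDO partners, Mlxip (MONDOA) was at 44.1, 39.3 and 45.8 TPM, and Mlxipl (ChREBP, the form known from liver and fat) had 1 fragment in all 3 libraries together. Mlx exceeded Mlxip 2.70 ± 0.251 fold. Both genes known as glucose-responsive targets of this branch were low beside Mlx: Txnip, which limits glucose uptake, was at 18.1 ± 0.951 TPM and its relative Arrdc4 at 0.718 ± 0.262 TPM.

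Antagonists of MYC were led by Mnt and Mga, not by the MXD genes. Mnt, the antagonist present in most growing and resting cells (ENSMUSG00000000282.12, chromosome 11, 74830920 to 74845725), was at 42.4, 42.8 and 49.8 TPM. Mga, which joins a MAX-binding domain to a T-box and works in a variant polycomb complex (ENSMUSG00000033943.15, chromosome 2, 119897228 to 119969581), was at 38.8, 31.6 and 37.6 TPM. Replicate 4 was the highest library for Mnt and replicate 3 the lowest for Mga. Means were 45.0 ± 4.18 and 36.0 ± 3.86 TPM, and the ranges did not overlap. With transcript lengths, however, Mnt was at 30.9, 31.1 and 36.3 TPM and Mga at 30.9, 25.1 and 29.9, and the ranges met. Nearest to Mnt in level were Wiz, a zinc finger protein of a histone methyltransferase complex (44.8 ± 4.48 TPM), and the phosphatase gene Ilkap (44.4 ± 3.28 TPM).

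The 4 MXD genes were scarce. Mxd1, induced in many lineages as cells leave the cycle (chromosome 6, 86647042 to 86669161), was highest at 8.42, 8.33 and 7.19 TPM. Mxd4 (chromosome 5, 34173883 to 34187720) was at 5.99, 5.42 and 5.83 TPM and Mxi1 (chromosome 19, 53310506 to 53375810) at 5.76, 4.94 and 5.74 TPM. On merged exon lengths the ranges of Mxd4 and Mxi1 overlapped, and Mxd1 lay above both. These steps depended on gene length. With transcript lengths, Mxd4 exceeded Mxi1 2.06 ± 0.0823 fold with no overlap of ranges. In that setting Mxd4 was at 9.09 ± 0.482 TPM, 1.58 times its value on merged exons, and Mxd1 at 8.73 ± 0.751, in reversed order and with ranges that overlapped.

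Mxd3, the MXD gene usually tied to dividing cells in S phase (chromosome 13, 55325168 to 55329758), was lowest of the antagonists. It had 27, 35 and 42 fragments, or 1.06, 1.17 and 0.691 TPM. The mean was 0.976 ± 0.253 TPM, with replicate 4 below 1 TPM and the other libraries just above it, so leaving out replicate 4 raised the number of members detected from 8 to 9. Counting error alone is 15.4% to 19.2% of these fragment counts per library, beside a coefficient of variation of TPM of 25.9%.

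Summed over the 6 antagonists (Mxd1, Mxd3, Mxd4, Mxi1, Mnt and Mga), the level was 102, 94.2 and 107 TPM. On merged exon lengths Mnt and Mga supplied 80.0 ± 1.57% of it and the 4 MXD genes 20.0 ± 1.57%. The sum stayed below Max in every library, with Max over antagonists at 1.41 ± 0.0942, or 2.25 ± 0.135 with transcript lengths. Myc exceeded the sum 7.87, 8.87 and 7.80 fold, a log2 difference of 3.02 ± 0.10 (higher in 3 of 3 libraries, exact two-sided sign-flip permutation p = 0.25, the smallest possible). Against the MXD genes alone Myc was 41.0 ± 2.63 fold higher on merged exon lengths. With transcript lengths Myc was at 692 TPM, and Mxd4, Mxd1, Mxi1 and Mxd3 were at 9.09, 8.73, 4.42 and 1.10 TPM. Mnt and Mga were then at 32.7 and 28.6 TPM, so both this fold and the share of Mnt and Mga were smaller.

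**Figure D2:**
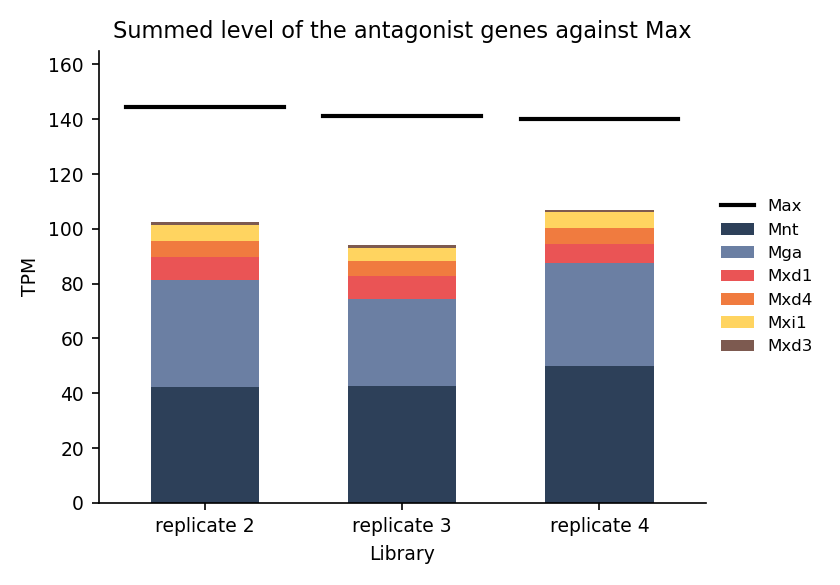
Stacked bars give the TPM of the 6 antagonist genes in each library and the black line the TPM of Max. Mnt and Mga fill most of each bar, and all 3 bars (94.2 to 107 TPM) end below the line of Max (140 to 144 TPM).

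In the order of levels (Myc, Max, Mlx, Mnt, Mga, Mxd1, Mxd4, Mxi1, Mxd3, Mycn), Mxd4 and Mxi1 were the only neighbours whose ranges over the 3 libraries overlapped on merged exon lengths; with transcript lengths the overlapping neighbours were instead Mnt with Mga and Mxd4 with Mxd1. The widest steps between members detected in every library were from Myc to Max (5.81 fold between means) and from Mga to Mxd1 (4.51 fold). In the gene models, no exon base of the 10 was shared with another gene on the same strand. Antisense overlaps (104 bases for Mxd3, 514 for Mxd4, 194 for Mxi1 and 385 for Mlx) were left to the strand setting of the counting. How many fragments were read on the wrong strand was not measured, and Mxd3 had few fragments of its own.

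At the median ratio, not matched for level, network genes varied between libraries about as much as others, while single members lay on both sides. Their median highest-to-lowest ratio was 1.14 over the 9 tested, beside 1.16 over all protein-coding genes tested, in CPM (fragments scaled by effective library size only). A chi-square test of equal rates was run over the 13688 genes with 30 or more fragments in all, with adjustment over all of them (Benjamini-Hochberg); a call needed an adjusted p below 0.05 together with a 2-fold or wider gap between the highest and the lowest CPM. None of the 9 members tested was called, against 11.0% of all genes tested and 764 of the 11461 protein-coding genes tested. At either share 9 genes would hold few calls or none. Mycn was too low to be tested. On the adjusted p alone, 4 of 9 members passed (44.4%), against 70.5% of all genes. The number of genes called overall fell from 1505 to 777, 523 and 528 when replicate 2, 3 or 4 was left out, and no member was called in any of these comparisons.

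The 4 members past the adjusted p differed by small ratios. Mga had the smallest adjusted chi-square p, 3.57e-30, with a CPM ratio of 1.19; Mnt had 5.13e-15 with 1.19, Myc 1.34e-14 with 1.07 and Mxd1 0.000184 with 1.18. For Myc the low library was replicate 2 and for Mga replicate 3. Max, Mlx, Mxd4, Mxi1 and Mxd3 did not pass, with adjusted chi-square p of 0.158, 0.115, 0.452, 0.103 and 0.0552. Mxd3 had the widest ratio of the members, 1.73, on its few fragments.

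Among the 5 members at 10 TPM or more, the coefficient of variation of TPM ran from 1.35% for Mlx, 1.58% for Max and 1.99% for Myc to 9.30% for Mnt and 10.7% for Mga. The median over the 7743 protein-coding genes at that level was 6.18%, with quartiles of 3.91% and 8.98%. Myc, Max and Mlx therefore lay below the lower quartile and Mnt and Mga above the upper one. For Mga, the longest member at 15340 exon bases, replicate 3 deviated from the mean of the other libraries by -0.27 on the log2(TPM + 1) scale. Genes of 8000 or more exon bases were lower in that library too, by a median of -0.11 over 1111 genes, against 0.04 over 1150 genes under 2000 bases. The part of gene length in the Mga difference was not tested.

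**Figure D3:**
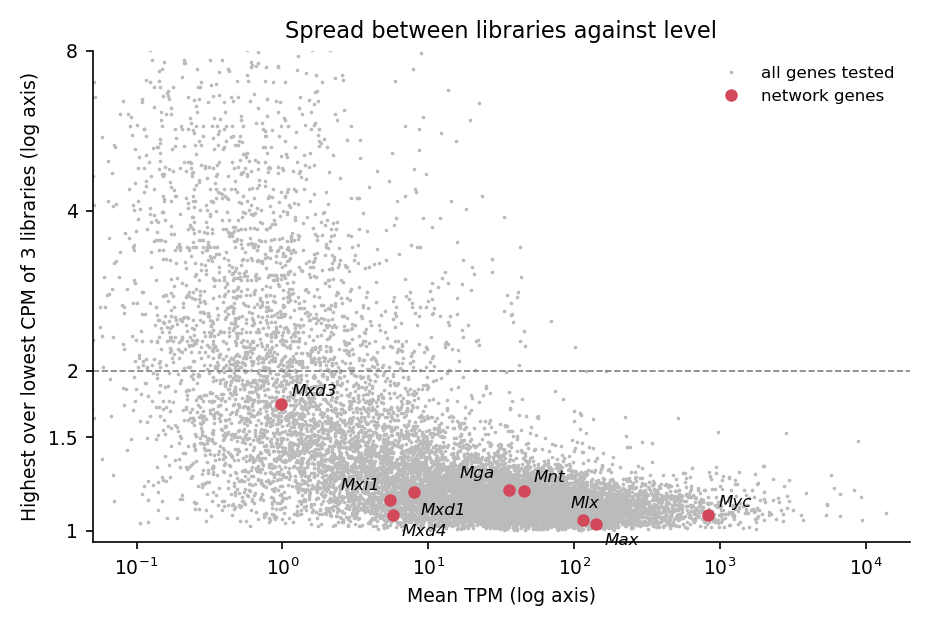
Highest over lowest CPM of the 3 libraries against mean TPM, both on log axes, for all genes tested (grey; 199 lie outside the axes) and the 9 network genes tested (red); the dashed line marks a ratio of 2. All 9 lie below the line, and Mxd3, at about 1 TPM, comes closest to it.

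Genes that work with the network were expressed nearly throughout. In 8 lists (91 genes) of further network factors, cofactors and targets, 86 genes reached 1 TPM in every library. Of all protein-coding genes, 45.6% did so, but the lists were chosen with earlier results of these data known. The lists describe these libraries only, because no second condition was analysed here. Between libraries, 764 of the 11461 protein-coding genes tested were called, and at that share each list would hold few calls or none.

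Corepressors that the MXD proteins and MNT recruit were all detected. The 16 SIN3 and HDAC genes were each at 10 TPM or more in all 3 libraries (median 50.9 TPM), with no gene called between libraries. Rbbp7 and Rbbp4, histone-binding subunits, were highest at 483 ± 27.2 and 157 ± 5.50 TPM, and Ing2 and Arid4b lowest at 14.4 ± 0.5003 and 11.6 ± 0.924 TPM. Corepressor messages thus exceeded those of the MXD genes, whose highest member was at 7.98 ± 0.686 TPM. They did not all exceed Mnt, which at 45.0 ± 4.18 TPM lay above Ing2 and Arid4b and below Rbbp7 and Rbbp4.

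The 11 partners of MGA in its polycomb complex were likewise all detected, with a median of 51.7 TPM. Tfdp1, the dimer partner of E2F factors, led at 290.3 ± 16.6 TPM, followed by the heterochromatin protein gene Cbx1 at 82.9 ± 4.01 TPM. Rybp (17.3 ± 0.829 TPM) and Tfdp2 (5.69 ± 0.590 TPM) were lowest. None was called between libraries.

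All 14 coactivator genes of MYC reached 10 TPM in every library (median 92.8 TPM). Ruvbl2 and Ruvbl1, the paired ATPases of chromatin complexes, were highest at 382 ± 24.3 and 190.5 ± 3.85 TPM. The acetyltransferase genes Crebbp and Ep300 were lowest at 29.0 ± 1.81 and 25.9 ± 2.60 TPM.

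Genes that set the stability of MYC protein were detected in 14 of 14 cases (median 75.1 TPM). Pim1 and Pim2, kinases that stabilise MYC, were at 486 ± 26.9 and 443 ± 6.21 TPM. At the other end were Aurka, a mitotic kinase that protects N-MYC, at 14.8 ± 0.294 TPM and Skp2, a ubiquitin ligase subunit, at 8.76 ± 0.612 TPM. No gene of the coactivator or stability list was called between libraries, where 764 of the 11461 protein-coding genes tested were.

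The MIZ1 list, on the repressive arm of MYC, was split. Zbtb17, which encodes MIZ1, was at 45.3, 56.4 and 56.9 TPM, lowest in replicate 2. Cdkn1a (p21) was at 82.9, 115 and 108 TPM, also lowest in replicate 2. Cdkn2b (p15) had 3, 0 and 0 fragments, and Cdkn1c (p57) had 3, 16 and 39. Cdkn1c was called (CPM ratio 5.49, adjusted chi-square p = 0.0108), also without replicate 3 (adjusted chi-square p = 0.00386). Without replicate 2 it was not called (adjusted chi-square p = 0.689), and without replicate 4 it had too few fragments to be tested. Arrdc4 of the MLX branch, with 21, 54 and 94 fragments, was the other gene of the lists that was called (CPM ratio 2.26, adjusted chi-square p = 0.00868). Without replicate 2 its ratio was 1.19 and without replicate 3 it was 1.88, and neither made the call. Without replicate 4 Arrdc4 was still called (CPM ratio 2.26, adjusted chi-square p = 0.00304).

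Genes that MYC is known to activate were abundant. All 25 reached 10 TPM and 23 reached 100 TPM in each of the libraries, against 7568 and 1915 of the 21764 protein-coding genes. Their median was 510 TPM, and the widest CPM ratio between libraries was 1.22. Because the list was chosen with earlier results of these data known, its level is a description and not a measure of MYC activity. The nucleolar chaperone Npm1 (2991 ± 220 TPM) and lactate dehydrogenase Ldha (2612 ± 83.9 TPM) led. Eif4e, the cap-binding initiation factor, was at 80.8 ± 8.39 TPM and the telomerase gene Tert at 14.7 ± 1.08 TPM, the lowest of the list. Promoter windows were listed for 18 of the 25 genes, and those of 5 (27.8%) held CACGTG, against 12.5% of the 7981 detected protein-coding genes with a window. For CACGCG the shares were 33.3% and 21.5%. In the other lists CACGTG was held by 0% (MIZ1), 7.69% (coactivators), 8.33% (corepressors) and 11.1% (MGA complex) of genes with a window. It was held by 16.7% (MYC stability), 25% (further network factors) and 50% (MLX targets) in the rest. These shares rest on few genes and are a description only.

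**Figure D4:**
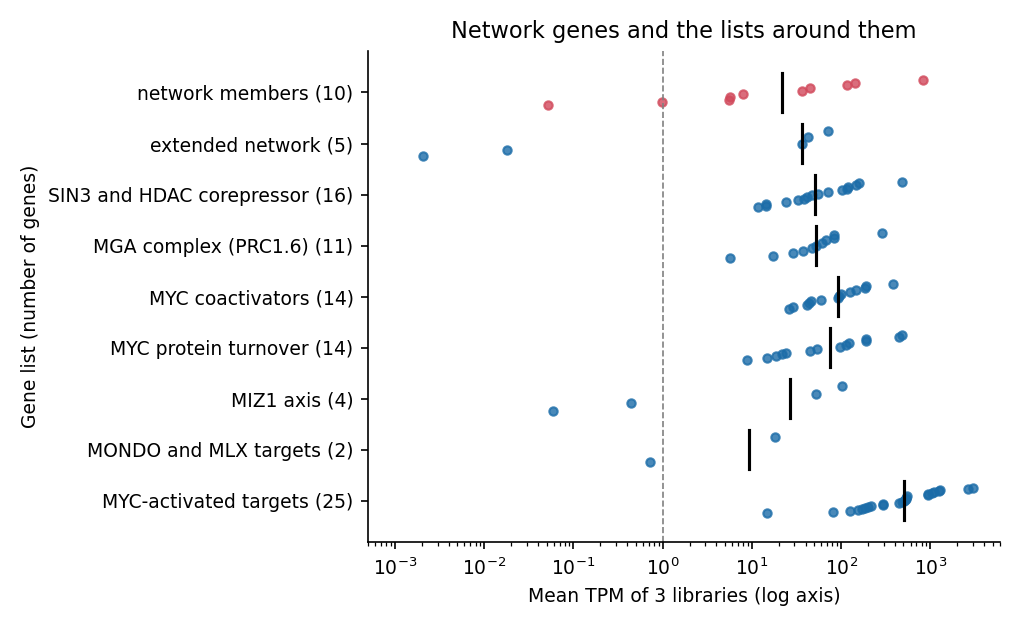
Mean TPM (log axis) of each gene in the network (red) and in the 8 lists around it (blue), with the number of genes in brackets and a black bar at each median. Genes that MYC activates lie furthest right (median 510 TPM), and the dashed line marks 1 TPM, below which Mycn, Mxd3, Mycl, Mlxipl, Cdkn1c, Cdkn2b and Arrdc4 fall on average.

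Usf1 and Usf2, which bind the same E-box without MAX, were at 36.6 ± 3.95 and 71.7 ± 6.01 TPM. Usf2 thus stood above Mnt and Mga and below Mlx, with no overlap of ranges in any of these 3 pairs.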

How the data were processed

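Values deposited by the authors are raw fragment counts, listed with each gene's merged exon length. Per the file headers, featureCounts 1.4.6-p4 counted read pairs with both ends aligned, on the reverse strand (option 2), over exons of GENCODE mouse M13; the build is mm10 per the labels. The aligner's settings: not given in the sources used here.

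Counts were divided by exon length and scaled to TPM here. Symbols came from GENCODE M21 (50376 of 50600 identifiers matched). Detection meant 1 TPM or more in every library. The quasi-likelihood test of edgeR needs groups and could not be used, so libraries were compared by chi-square (2 degrees of freedom) on TMM effective library sizes (edgeR 4.0.16, R 4.3.3). It treats fragments as independent and says nothing of conditions; no molecular identifiers were used. The mean chi-square per gene between pairs of libraries was 17.2 to 26.6, above sampling noise, so all 3 were counted. Of the steps, only the chi-square call was tried on simulated counts. These held sampling noise alone, so they do not show how the call behaves with the wider differences between these libraries. E-box letters were searched in RefSeq promoter windows (GRCm38.p6).

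Members and lists were chosen with earlier results of these data known. Named were all members, Mycl, Mlxip, Mlxipl, Mycs and Pvt1, the 2 highest and 2 lowest genes of each list, list genes called between libraries, the 2 genes nearest in level to Myc, Max and Mnt, and Xist and Ddx3y. A gene that this rule names is not reported here, and Usf1, Cd8b1 and Epcam were named after their values were seen. Alternatives covered the TPM total, gene length, detection threshold, pseudocount (1 TPM as main), antagonist set, library scaling, count filter, ratio threshold and leaving out each library. Tables were made in Python 3.11.15 with pandas 2.3.3, tests with scipy 1.17.1, and plots with matplotlib 3.10.9.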

Additional observations from a re-analysis of the deposited data

How the results depend on the processing

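Of 46 recomputed summary values, 42 kept their direction or, for counts, stayed within 1.5 times the reported one. The other 4 were counts of all genes called between libraries: 2821 without the filter on low counts, and 523 to 777 with 1 library left out, where fewer libraries were compared. No member was called under any of the 7 settings tried, and the number of members detected ran from 7 (at 5 TPM) to 9 (at 0.5 TPM, or without replicate 4). Myc stayed above the summed antagonists by 2.96 to 5.29 on the log2 scale (the highest against the MXD genes alone; 3.64 without Mga), and Max stayed below Myc by a difference of -2.56 to -1.86, the last with transcript lengths. Of 60 recomputed member levels, 14 moved by more than the SD, all through the gene length or the TPM total. The 60 include levels with 1 library left out, which could not be counted as moved. Dropping 1 of 3 values always shifts their mean by less than 1 SD. No paired analysis was possible because there is 1 group. The transcript-length values of Max over Mlx, Mxd4 over Mxi1 and Max over the antagonists were added after seeing the data. Depth limits Mycn and Mxd3 most.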
